A study of Mus musculus with 2 samples.

Results

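Cyclic nucleotide phosphodiesterases end the cyclic AMP and cyclic GMP signal by hydrolysing these messengers. The 10 mouse genes described here are the rows of the deposited count table that carry the symbols Pde3a, Pde3b, Pde4a, Pde4b, Pde4c, Pde4d, Pde7a, Pde7b, Pde8a and Pde10a, of 55487 rows in all. They were read in RNA from MC3T3-E1, a mouse calvarial line of osteoblastic cells, in 1 library of untreated cells and 1 library of cells given 10 nM parathyroid hormone (PTH), both labelled 1 h. Both cultures were grown in α-MEM with 10% fetal bovine serum, plated in 12-well plates with 25000 cells on each cm2 and left for 24 h before the hormone was given to one of them. The labels name no vehicle for the untreated cells. With 1 library per condition nothing below has a replicate check, no p-value was computed, and every difference is one between these libraries, not between the conditions.

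The PTH receptor of osteoblasts couples to adenylyl cyclase, and the cyclic AMP that follows activates protein kinase A and, through it, CREB-dependent transcription. Enzymes of the PDE4, PDE7 and PDE8 families are specific for cyclic AMP, whereas PDE3 and PDE10 enzymes act on both nucleotides. PDE4 enzymes are the targets of rolipram, and long PDE4 forms are activated when protein kinase A phosphorylates them. Some PDE4 genes carry internal promoters that respond to cyclic AMP in other cells, so that the enzymes are part of a negative feedback on the messenger.

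The 250 bases before each transcription start listed by RefSeq (build GRCm38.p6) were searched on both strands for the letters of the cyclic AMP response element. These were the full palindrome TGACGTCA and its half-site, TGACG or CGTCA, which lies within the palindrome. The table of starts held 13 windows for 7 of the 10 genes. No window held the palindrome, which stood in 1.55% of all 32851 windows of that length. The half-site stood in 3 of the 13 windows, against 17.8% of all windows. The 3 sites, with 10 bases on either side and the half-site in capitals, are shown because they belong to genes whose reads were more numerous, fewer and little different after PTH.
Pde4b (chr4:102421511-102421535, plus strand, 34 bases before the start): tttggctgcaCGTCAattttctcat
Pde4a (chr9:21184041-21184065, plus strand, 50 bases before the start): cacagctcgaCGTCAggctggggag
Pde8a (chr7:81213171-81213195, plus strand, 84 bases before the start): tgctttgcatTGACGccagcagccg
All 5 bases of the Pde4b half-site lie in an exon of another annotated transcript of the gene, and those of the other two lie outside the exons of their gene. Distances are from RefSeq starts. The nearest GENCODE start is 37 bases from that of this Pde4b window, 0 from that of Pde4a and 331 from that of Pde8a. A match is a run of letters and not a shown binding site.

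Pde4b and Pde4d were the members whose reads were more than 1.5-fold higher after PTH. The stretches of their windows outside annotated exons are shown for comparison. Of the Pde4b windows the one with the half-site is given, from 250 to 38 bases before the start, and Pde4d had 1 window, from 250 to 73 bases before the start.
Pde4b (chr4:102421305-102421517, plus strand): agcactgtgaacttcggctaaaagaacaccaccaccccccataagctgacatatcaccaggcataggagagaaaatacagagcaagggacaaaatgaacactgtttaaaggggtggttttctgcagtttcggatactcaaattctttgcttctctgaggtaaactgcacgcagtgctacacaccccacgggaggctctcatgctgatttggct
Pde4d (chr13:108653927-108654104, plus strand): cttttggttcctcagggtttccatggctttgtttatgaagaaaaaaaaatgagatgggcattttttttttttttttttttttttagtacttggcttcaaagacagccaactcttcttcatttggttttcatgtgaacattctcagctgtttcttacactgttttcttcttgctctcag
Neither stretch holds the palindrome or a half-site. For Pde4b this follows from the cut, since its half-site, 34 bases before the start, lies in the exon part left out. Both stretches lie inside their gene. GENCODE lists 13 starts for Pde4b and 20 for Pde4d, while RefSeq windows numbered 4 and 1, so most starts of these genes were not searched. Some RefSeq starts of Pde4b, at 37 and 35 bases from the nearest GENCODE start, are not GENCODE starts. The counts are per gene, and which of these starts was in use cannot be read from them.

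The libraries held 66302211 (untreated) and 70036872 (PTH) counts, and the comparison took in the 16408 rows whose counts summed to at least 20. All 9 osteoblast markers looked for, among them Runx2, Sp7, Col1a1 and Pth1r, had enough counts to compare. Sp7, a factor required for osteoblast differentiation, had 4583 counts untreated and 1974 after PTH, a ratio of 0.418 with a 95% counting interval of 0.397 to 0.441. Sox9, a chondrocyte marker, had 3264 and 10982 counts, a ratio of 3.27 (3.14 to 3.40), and Acta1, a muscle marker, 124 and 28 counts, a ratio of 0.219 (0.140 to 0.333). These are the 3 markers whose whole interval lay beyond 1.5-fold. With a coefficient of variation of 0.2 per library assumed as well, the interval of Sp7 was 0.240 to 0.730, no longer wholly beyond 1.5-fold. Those of Sox9 (1.87 to 5.70) and Acta1 (0.112 to 0.442) stayed beyond it. Of the markers of other cell types, 3 of 5 for chondrocytes, 3 of 7 for macrophages and osteoclasts, 1 of 5 for adipocytes, 2 of 5 for muscle and 1 of 5 for endothelium had enough counts, and Acan, Ptprc, C1qa, Adgre1, Adipoq, Myod1, Cdh5 and Kdr were listed at 0 in both libraries. The summed level of the chondrocyte markers was 467 CPM (each count divided by the scaled library size and expressed per 1e6) untreated and 721 after PTH. Most of it was Col2a1, at 411 and 555 CPM, a ratio of 1.35 (1.33 to 1.37). The macrophage and osteoclast markers summed to 87.1 and 96.5 CPM, most of it Ctsk. The adipocyte, muscle and endothelial markers summed to between 0.506 and 2.77 CPM in either library. The part of these markers in the results below was not tested. In such bulk RNA a change in the number of cells that express a gene and a change in its RNA per cell cannot be told apart.

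Counts were scaled between the libraries, and the ratio PTH over untreated is given with a 95% exact interval that covers counting error only. A gene counts as past the size limit where all of its interval is more than 1.5-fold above or below 1. Of the 10 members, 8 had enough counts to compare, and 2 of them were past the limit with more reads after PTH, where 5.39% of all rows compared were. Another 1 of the 8 was past it with fewer reads, where 3.54% of all rows were, and 5 were neither. The median log2 ratio of the 8 was 0.07, and that of all rows compared 0.00. The 3 members past the limit were all PDE4 genes.

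Pde4b, which encodes a cyclic AMP-specific enzyme prominent in immune and inflammatory signalling, lies at chr4:102087543-102607259 on the plus strand (GRCm38) and spans 520 kb with 13 annotated transcripts. It had 1409 counts in the untreated library and 6772 in the PTH library, or 20.99 and 98.0 CPM after scaling. The PTH library was thus 4.67-fold higher (4.41 to 4.95), a log2 ratio of 2.22. Of the 2619 other rows whose total count was within 1.5-fold of its own, 11 had a higher ratio.

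Pde4d, whose cyclic AMP-specific enzymes are held by anchoring proteins and arrestins near receptors, is the longest of the 10 genes, 1504 kb at chr13:108449948-109953461 on the plus strand, with 20 annotated transcripts. It had 1391 counts untreated and 5620 after PTH, or 20.7 and 81.3 CPM. The ratio was 3.92-fold (3.70 to 4.16), a log2 ratio of 1.97, and 12 of the 2751 rows with a like total count had a higher one. The counts of Pde4b and Pde4d were thus close to each other in the untreated library and set apart in the PTH library, where Pde4b stood higher. The ratio of Pde4b exceeded that of Pde4d by 1.19-fold, with a counting interval of 1.09 to 1.29, and how far cultures differ by themselves is not known here.

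Pde4a, the third PDE4 gene with enough counts, differed in the other direction. It is the shortest of the 8 compared genes along the chromosome, 47.5 kb at chr9:21165714-21213248 on the plus strand, with 5 annotated transcripts. It had 2192 counts untreated and 1257 after PTH, or 32.7 and 18.2 CPM. The ratio of 0.557 (0.519 to 0.597) corresponds to 1.80-fold fewer reads (1.67 to 1.93), and 28 of the 2589 rows with a like total count had a lower ratio. Pde4c, the fourth gene of the family, had 6 and 4 counts, too few to compare, with an interval of the ratio from 0.134 to 2.73.

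**Figure D1:**
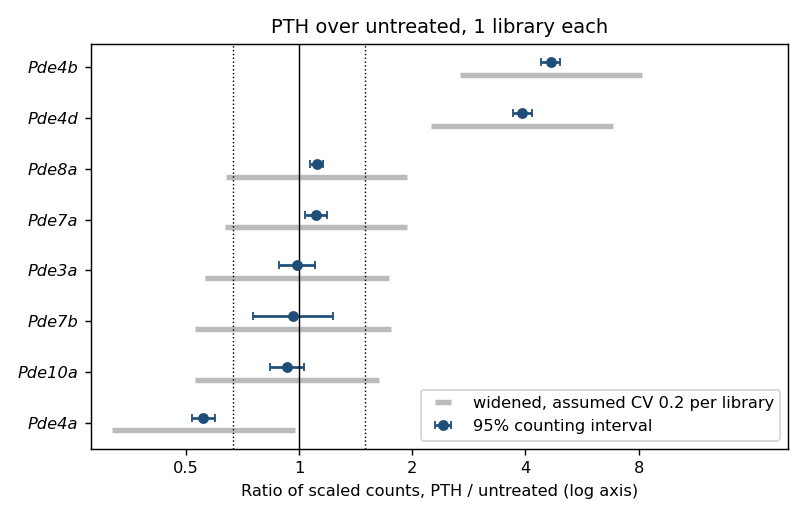
Ratio of scaled counts, PTH over untreated, on a log axis for the 8 compared members, with 95% counting intervals (blue) and intervals widened for an assumed coefficient of variation of 0.2 per library (grey). Dotted lines mark 1.5-fold either way. The grey bars of Pde4b and Pde4d stay above 1.5-fold, and that of Pde4a reaches from 0.319 to 0.974, across the limit.

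The variation between cultures is unknown here. When an assumed coefficient of variation of 0.2 per library was added to the counting error, Pde4b (2.67 to 8.15) and Pde4d (2.25 to 6.85) stayed past the limit, as 2.89% of all rows did with more reads. Pde4a did not, with an interval of 0.319 to 0.974, where 1.63% of all rows were past it with fewer reads.

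The balance of PDE4 genes within a library does not depend on how the libraries were scaled to each other. Per kb of annotated exon, the level of Pde4a in untreated cells was 2.15 times that of Pde4b and 2.47 times that of Pde4d. In the PTH library the order was turned, with Pde4b at 3.91 times and Pde4d at 2.85 times the level of Pde4a. The Pde4b to Pde4a ratio was 8.38-fold higher in the PTH library (7.65 to 9.18), and the Pde4d to Pde4a ratio 7.05-fold higher (6.43 to 7.72), both with counting intervals. Gene lengths cancel in these last values. They do not cancel in the levels themselves: per kb of the longest annotated transcript, Pde4a stood in untreated cells at 1.44 times Pde4b and 1.42 times Pde4d, and in the PTH library Pde4b stood at 5.82 and Pde4d at 4.94 times Pde4a.

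The cyclic AMP-specific genes outside the PDE4 family were close to level. Pde8a, which encodes a high-affinity, rolipram-insensitive enzyme, had the most counts of all members in untreated cells, 4377 against 5019 after PTH, a ratio of 1.11 (1.07 to 1.16). Pde7a, also a high-affinity enzyme gene, had 1656 and 1891 counts, a ratio of 1.11 (1.04 to 1.19). Its relative Pde7b had 138 and 137 counts, a ratio of 0.964 (0.755 to 1.23). With so few reads this interval was the widest of the 8 on the log scale. The intervals of all 3 lie inside 1.5-fold, and those of Pde8a and Pde7a lie above 1. Among rows of like total count 18.6% had a higher ratio than Pde8a and 18.6% a higher one than Pde7a.

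The genes of enzymes that act on both nucleotides also had counts near level. Pde3a, the gene of a cyclic GMP-inhibited enzyme known from heart, platelets and oocytes, had 622 and 633 counts, a ratio of 0.988 (0.883 to 1.11). Pde10a, best known from striatal neurons, had 732 and 702 counts, a ratio of 0.931 (0.838 to 1.03). Pde3b, the cyclic GMP-inhibited enzyme gene that serves insulin action in fat cells, was listed at 0 in both libraries. The table holds 146 rows at 0 in 1 library and at 20 or more in the other, so a listed 0 is not read as absence of the transcript. Exons of other genes overlap Pde3a over 5.82% of its exonic length and Pde7a over 0.620%, in both cases on the opposite strand, and no exon of the other 6 compared members is overlapped.

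**Figure D2:**
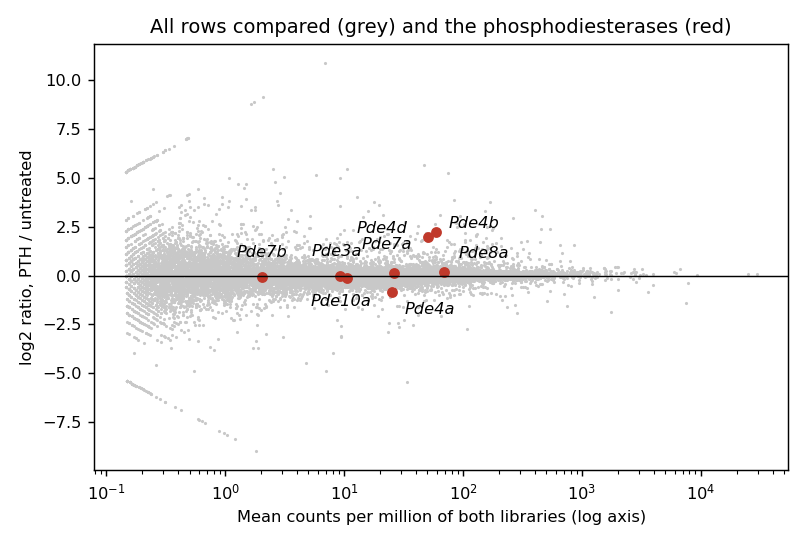
Log2 ratio, PTH over untreated, against the mean CPM of both libraries (log axis) for the 16408 compared rows (grey) and the 8 compared members (red), 1 library per condition. Pde4b (2.22) and Pde4d (1.97) lie above, and Pde4a (-0.84) below, the band that holds most rows of like level.

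Related genes can trade reads where their sequences are the same. Of the 50-base runs in the annotated transcripts of Pde4a, Pde4b, Pde4d, Pde7b, Pde8a and Pde10a, 0% also occurred, on either strand, in the transcripts of another gene. The share was 5.64% for Pde3a, 1.01% for Pde4c, 0.154% for Pde3b and 0.0256% for Pde7a. Reads of 50 bases from Pde4a, Pde4b and Pde4d thus had no second annotated origin, while the sources used here do not give the read length.

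Levels of different genes were compared as CPM per kb of exon. In untreated cells Pde8a stood highest at 16.1 (15.6 to 16.6), followed by Pde4a at 4.27 (4.09 to 4.45), Pde7a at 3.18 (3.03 to 3.34), Pde4b at 1.99 (1.89 to 2.09) and Pde4d at 1.73 (1.64 to 1.82). Pde10a at 0.849 (0.788 to 0.912), Pde3a at 0.727 (0.671 to 0.787) and Pde7b at 0.165 (0.139 to 0.195) were lower. No neighbours in this order had overlapping counting intervals, but parts of the order depend on the length taken for each gene, as given with the shares. In the PTH library Pde8a was at 17.9, Pde4b at 9.28 and Pde4d at 6.77, ahead of Pde7a at 3.53 and Pde4a at 2.38. Pde10a at 0.790 (0.733 to 0.851) and Pde3a at 0.719 (0.664 to 0.777) had overlapping intervals there.

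**Figure D3:**
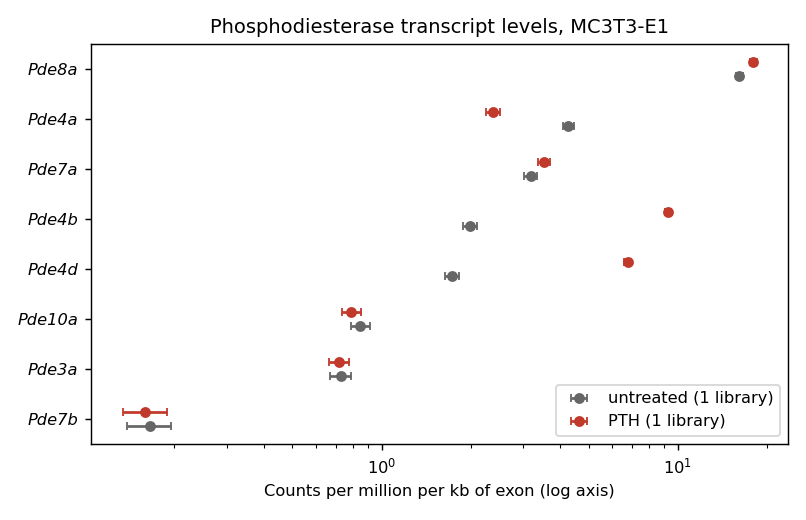
CPM per kb of exon (log axis) for the 8 compared members in the untreated (grey) and PTH (red) library, with 95% exact Poisson intervals, 1 library each. Pde4b moves from 1.99 to 9.28 and Pde4d from 1.73 to 6.77, past Pde4a, which is at 4.27 and 2.38.

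These levels were added up over the 15 phosphodiesterase genes of catalytic subunits with enough counts, the 8 members and 7 others. The sum was 30.0 CPM per kb untreated and 42.2 after PTH, 1.41 times as much. Without Pde4b and Pde4d the sum over the other 13 genes was 26.3 and 26.1, a ratio of 0.995. Both were left out for their higher reads in these data, so this ratio had to be below 1.41. It does not mean that each of the 13 was level, since Pde8a went from 16.1 to 17.9 and Pde4a from 4.27 to 2.38. With CPM not divided by length the ratios were 1.68 for all 15 genes and 0.951 for the 13. Pde8a took 53.8% of the per-kb sum of all 15 genes in untreated cells and 42.6% after PTH. The share of Pde4b was 6.63% and 22.0%, that of Pde4d 5.76% and 16.1%, and that of Pde4a 14.2% and 5.63%. Together the 3 PDE4 genes made up 26.6% of the untreated and 43.7% of the PTH sum. The 7 genes that are not among the 10 made up 3.19% and 1.44%.

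These shares depend on the length taken for each gene, since the isoforms in use are unknown. With the longest annotated transcript in place of all exons, the sum was 1.74 times as high after PTH, and 0.958 times without Pde4b and Pde4d. Pde8a then took 41.0% untreated, still the highest share, but 26.3% after PTH, below Pde4b at 31.3% and Pde4d at 26.6%. In untreated cells Pde4a then took 16.8%, and Pde4d (11.8%) and Pde4b (11.7%) both stood above Pde7a (9.38%).

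**Figure D4:**
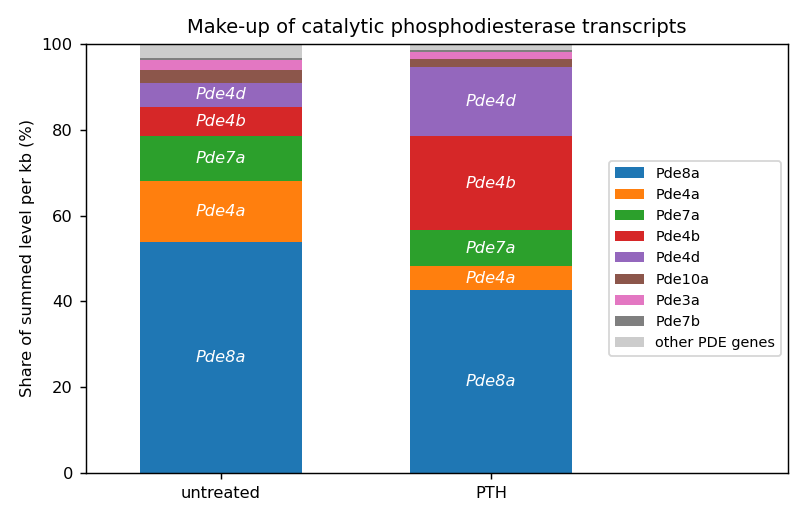
Share of each gene in the summed counts per kb of exon of 15 catalytic phosphodiesterase genes, in percent, for the untreated and the PTH library (1 each). The PDE4 segments grow from 26.6% to 43.7% through Pde4b and Pde4d, while that of Pde4a shrinks from 14.2% to 5.63%.

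Of 14 other phosphodiesterase family genes, 9 had enough counts to compare, 1 was past the limit with fewer reads, none with more, and 8 were neither. Among all rows compared these shares were 3.54%, 5.39% and 91.1%. The median log2 ratio of the 9 genes was -0.10. The 1 gene was Pde2a, a cyclic GMP-stimulated enzyme gene, with 226 and 95 counts and a ratio of 0.408 (0.318 to 0.521). On the same strand 64.3% of its exon bases also belong to Gm45837, so its count is uncertain, and its widened interval, 0.224 to 0.749, reached across the limit. Pde8b, the relative of Pde8a, had 46 and 51 counts, a ratio of 1.08 (0.708 to 1.64). Pde6d, which encodes a carrier of lipid-modified proteins and no phosphodiesterase activity, had 1827 and 1752 counts, a ratio of 0.931 (0.872 to 0.995).

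Of all rows compared, 91.1% were on neither side of the limit. The lists that follow, of cyclic AMP and cyclic GMP genes, are small, and their counts are to be read beside that share. None of 6 compared adenylyl cyclase genes was past the limit, and Adcy6 and Adcy3, those with most counts, were at ratios of 0.983 (0.949 to 1.02) and 1.06 (1.01 to 1.11). Adcy1, with 17 and 5 counts, was at 0.286 (0.0824 to 0.806). Adcy3 shares 22.1% of its exonic length with exons of the opposite strand. None of 7 compared genes of protein kinase A subunits and inhibitors was past it either. Prkar1a, the regulatory subunit gene with most counts, was at 1.196 (1.17 to 1.22), and Prkaca, the catalytic one, at 0.945 (0.916 to 0.975). Prkar1b, another regulatory subunit gene, had 28 and 10 counts, a ratio of 0.347 (0.150 to 0.736). Pkig, an inhibitor gene, had 1558 and 2198 counts, a ratio of 1.37 (1.28 to 1.46). The median log2 ratios of these lists were 0.02 and -0.17.

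Among 5 compared genes of other cyclic AMP effectors and exporters, 1 was past the limit with more reads, where 5.39% of all rows were. Rapgef3, which encodes the exchange factor EPAC1 that reads cyclic AMP independently of protein kinase A, had 149 and 390 counts, a ratio of 2.54 (2.099 to 3.09). Its widened interval, 1.41 to 4.56, reached across the limit. The exporter genes Abcc5 and Abcc4 were at 0.990 (0.955 to 1.03) and 1.02 (0.951 to 1.10), and the median log2 ratio of the list was 0.03. Bves, of the same list, had 241 and 145 counts, a ratio of 0.584 (0.472 to 0.721). None of 11 compared phosphodiesterase anchoring and binding partners was past the limit, with a median of 0.03. In that list Rack1, which binds a PDE4D form, was at 1.17 (1.16 to 1.18) and Akap8, a nuclear anchoring protein gene, at 1.08 (1.05 to 1.12). None of 6 compared genes of cyclic GMP synthesis, receptors and kinases was past it, with a median of 0.13. The natriuretic peptide receptor genes Npr3 and Npr2 were at 1.13 (1.10 to 1.16) and 1.10 (1.06 to 1.15). Prkg2, a kinase gene of the list, had 2729 and 2046 counts, a ratio of 0.728 (0.687 to 0.771).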

How the data were processed

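The authors deposited 1 table of whole-number read counts per gene, not normalised, with 1 column per library. The submitters' processing notes name HISAT2 and mm10. The counting tool, annotation, use of strand, read length and whether the whole numbers were counted or estimated go unnamed in the sources used here, and the intervals take each count as independent reads. PCR copies would make the true counting error wider.

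Counts were scaled by TMM effective library sizes (edgeR 4.0.16, R 4.3.3) over rows whose counts summed to at least 20. Its quasi-likelihood test could not be fitted with 1 library per group. Ratios carry 95% exact conditional (Clopper-Pearson) intervals (Python 3.11.15, scipy 1.17.1), log2 ratios use 0.5 added counts, and levels carry exact Poisson intervals. The interval widened for variation between cultures is a normal approximation on the log scale. Coordinates, exons and lengths are from GENCODE M21 (GRCm38, also called mm10).

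Members, lists and rules were chosen with earlier results of these data known. Named are all members and, per list, up to 4 genes past the limit, or the 2 with most counts besides where fewer than 2 were past it. Adcy1, Prkar1b, Bves and Prkg2 are named outside this rule and had the lowest ratio of the compared genes in their lists. Pkig is also named outside it and had the highest ratio of its list. Pde6d, Pde6g and Pde6h were left out of the summed level, a choice made after their values were seen. Likeness of pattern was not computed over 2 libraries. Alternatives were 3 scalings, 2 filters, 2 fold limits, the widened interval, added counts of 1 and 5, and the longest transcript as length.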

Additional observations from a re-analysis of the deposited data

How the results depend on the processing

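Over 6 alternatives (3 scalings, 2 count filters and the widened interval) the ratio of Pde4b ranged from 4.55 to 4.68, that of Pde4d from 3.82 to 3.93 and that of Pde4a from 0.543 to 0.558. Of 48 ratios of members so obtained, 47 kept their side of the limit, 1 lost it (Pde4a, 0.557 with the widened interval) and 0 reversed. Only members past the limit could be labelled reversed. Each scaling or filter multiplies every ratio by a common factor, and the widened interval leaves the ratio nearly as it was. Such settings therefore cannot show how far cultures differ. Members with fewer reads past the limit numbered 0 with a fold limit of 2 and 0 with the widened interval. Of all rows, 543 had more and 307 fewer reads past the limit with a filter at 100 counts, 1386 and 983 with no filter, 1729 and 1459 with a fold limit of 1.2, 517 and 262 with a limit of 2, and 474 and 267 with the widened interval, against 884 and 581. These differ by construction, through the rows tested, the limit or the interval's width. With Pde6d and Pde6h in the sum, a choice added after seeing the data, the share of Pde8a was 37.9% untreated and 33.3% after PTH, and that of Pde4b 4.68% and 17.2%. No paired analysis was possible because each group has 1 library. Pde4c (6 and 4 counts) and Pde3b (0 and 0) had too few counts for a comparison, and why Pde3b was listed at 0 was not tested.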
